A study of Pinus pinaster with 8 samples.

Results

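Of all 2910 spots of a cDNA microarray of maritime pine (Pinus pinaster), 4.50% are covered here. Each carried a described transcript that was more abundant in compression than in opposite developing xylem. The study's text did not single out these transcripts by their own sequence accession. They are mostly enzymes of primary and wall metabolism, redox carriers, and parts of the machinery that makes, folds, moves and degrades proteins. They were chosen by their measured ratio. A spot was taken where its mean ratio over all columns was at least 0.585 on the log2 scale in favour of compression xylem (Cx), which is 1.5-fold, and where it could be joined to a clone of the study's list of described Cx transcripts. Of the 226 clones of that list that came from the composite xylem library, 30 were left out because the text names their accession, and 65 because they are described as tubulin, hypothetical, unknown or the like. All the rest are covered here, singly or within a count or range. The study's list had also required a small adjusted p for the difference in these same data. Since the ratio itself chose these clones, their Cx excess is given below as a description and supports nothing. A few of them, 10 in all, belong to contigs that the text does name, and they are kept because their own accessions are not named.

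Cx was scraped from the lower side and opposite xylem (Ox) from the upper side of the stems of 4 field-grown trees aged 25 to 35 years, after bark and phloem had been peeled away, so that both tissues of a comparison came from bent trees. The stems had been bent at an angle of 45 degrees for 2 months. Each slide carried 2 full copies of the array and was hybridized with a Cx and an Ox target labelled in different dyes. The spotted inserts came from a library that mixed Cx, Ox, early and late xylem of other, Corsican trees. Scrapings are bulk tissue, so fewer cells of a type and less RNA per cell cannot be told apart. Descriptions are at hand only for clones that the study listed as different between the tissues, and tissue markers were therefore not looked up independently of the contrast.

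The 8 deposited columns of log2 ratios formed 4 pairs of near-identical columns (r = 0.969 to 0.984 across spots), which were taken as the copies on a slide and averaged. The labels do not say this. They give every column of a dye orientation a tree number of its own, and each number occurs in both orientations. Each average therefore joins columns labelled as different trees, trees 1 and 2 or trees 3 and 4. The joining rests on these correlations and on the study's methods, which describe 4 hybridizations in duplicate. It gave hybridizations 1 and 2, in which Cx was labelled with Cy3, and 3 and 4, in which it was labelled with Cy5. Between columns that were not joined, the correlation was 0.843 to 0.875 where the dyes ran the same way and 0.635 to 0.791 where they were swapped. All ratios are given here as log2(Cx/Ox), positive where the transcript was more abundant in Cx. That direction rests on the study's own table of fold changes, which runs the other way as Ox over Cx, and not on its methods, which word the ratio by dye.

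In softwoods, a leaning stem makes compression wood on its lower side. Its tracheids are short and rounded, with a thick secondary wall that is rich in lignin and galactan and poor in cellulose. Building such a wall draws on sucrose cleavage and sugar phosphates for polysaccharides, on the shikimate and one-carbon pathways for monolignols and their methyl groups, on laccases and peroxidases for the coupling of monolignols, and on the endomembrane system for the delivery of wall material.

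The sequence reads behind some of these spots show what was printed on the glass. Each is given 5′ to 3′ as it stands in the study's list, with its first base counted from the start of the read. Reads longer than 399 bases were at hand only up to that length, which applied to 108 of these clones. None was placed on a genome here. The first 2 come from a fructokinase 3 contig, a sugar kinase that phosphorylates fructose, and are shown because these clones of 1 contig gave unequal ratios. In the read of GEM-001-D03 (bases 245 to 391) the capitals mark the codons of the glycine-rich motif found near the active site of this kinase family. In that of GEM-009-A08 (bases 3 to 155), which ends at the stop codon, they mark 36 bases that another clone, left out by its description, carries on the opposite strand.
GEM-001-D03: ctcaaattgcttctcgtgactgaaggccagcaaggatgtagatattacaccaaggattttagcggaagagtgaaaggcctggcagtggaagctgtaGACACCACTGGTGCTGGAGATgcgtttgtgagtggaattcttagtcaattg
GEM-009-A08: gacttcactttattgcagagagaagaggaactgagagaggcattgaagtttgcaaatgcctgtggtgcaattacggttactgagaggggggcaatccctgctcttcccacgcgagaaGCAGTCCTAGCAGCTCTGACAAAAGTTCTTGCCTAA

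The laccases, copper oxidases that couple monolignols, are shown over 108 aligned bases around a histidine motif that binds copper. Capitals mark the 26 bases at which the 2 reads differ, so that 75.9% of the bases are shared. GEM-055-E03 is shown from base 189 and GEM-086-G05 from base 175.
GEM-055-E03: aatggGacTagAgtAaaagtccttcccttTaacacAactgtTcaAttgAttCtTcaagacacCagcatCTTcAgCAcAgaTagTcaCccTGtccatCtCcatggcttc
GEM-086-G05: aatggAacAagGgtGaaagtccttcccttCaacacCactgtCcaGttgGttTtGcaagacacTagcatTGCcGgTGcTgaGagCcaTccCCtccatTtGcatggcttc

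The glycosyltransferase reads, assigned by the study to 1 contig, overlap by 85 bases, of which 7 differ (capitals) and 91.8% are shared.
GEM-036-G12: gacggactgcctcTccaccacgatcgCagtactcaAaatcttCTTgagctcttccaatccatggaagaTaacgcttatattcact
GEM-032-E10: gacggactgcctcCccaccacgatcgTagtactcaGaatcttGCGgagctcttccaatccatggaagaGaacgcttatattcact

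A proline-rich protein and a proline-rich arabinogalactan protein, which belong to families of the cell wall and cell surface, are shown with their proline codons in capitals. The stretch of GEM-037-B06 (bases 142 to 291) holds 6 such codons among 50, and that of GEM-003-D11 (bases 218 to 397) holds 8 among 60. Over the coding part of each read, proline codons made up 8.41% of 107 codons in GEM-037-B06 and 8.91% of 101 codons in GEM-003-D11.
GEM-037-B06: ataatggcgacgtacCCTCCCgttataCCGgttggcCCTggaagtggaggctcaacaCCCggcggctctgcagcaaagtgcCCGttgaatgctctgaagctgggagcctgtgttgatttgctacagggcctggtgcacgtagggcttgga
GEM-003-D11: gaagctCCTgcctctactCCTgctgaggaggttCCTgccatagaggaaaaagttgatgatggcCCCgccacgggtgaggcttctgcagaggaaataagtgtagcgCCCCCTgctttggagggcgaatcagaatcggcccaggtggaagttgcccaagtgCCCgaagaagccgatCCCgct

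The clone described as similar to chloroplastic elongation factor Tu, a GTPase that brings aminoacyl-tRNA to ribosomes of the bacterial type, is shown because it gave the second largest mean ratio. The capitals mark the codons of a stretch that is conserved in this family (bases 173 to 301 of the read).
GEM-008-D06: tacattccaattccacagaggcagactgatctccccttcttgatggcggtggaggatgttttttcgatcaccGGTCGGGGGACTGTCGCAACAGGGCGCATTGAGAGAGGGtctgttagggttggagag

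Over all these clones the median of the mean log2(Cx/Ox) was 0.86, or 1.81-fold, beside a median of -0.01 over all 2910 spots. The means ran from 0.59 to 2.59. A mean of at least 1, a doubling, was reached by 46 clones and a mean of at least 2 by 8 clones. Every one of the clones had a positive ratio on all 4 hybridizations, as did 22.7% of all spots, and the lowest single value was 0.19. In limma's robust model, 126 clones passed an adjusted p of 0.05 and 1.5-fold toward Cx and 5 did not, beside 9.14% of all spots that passed. This count is fixed in large part by the way the clones were chosen. For comparison, the 30 clones that the text names by accession had a median of 1.00, and the 65 left out by description had one of 0.86. The 3 members closest to the limit were the 40S ribosomal protein S19 clone with a mean of 0.588, a Sar1-family small GTPase with 0.591 and an ATP synthase clone with 0.593. The 3 spots just below it, at Q7P8, Q6G17 and Q2N11, had means of 0.584, 0.582 and 0.578.

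**Figure D1:**
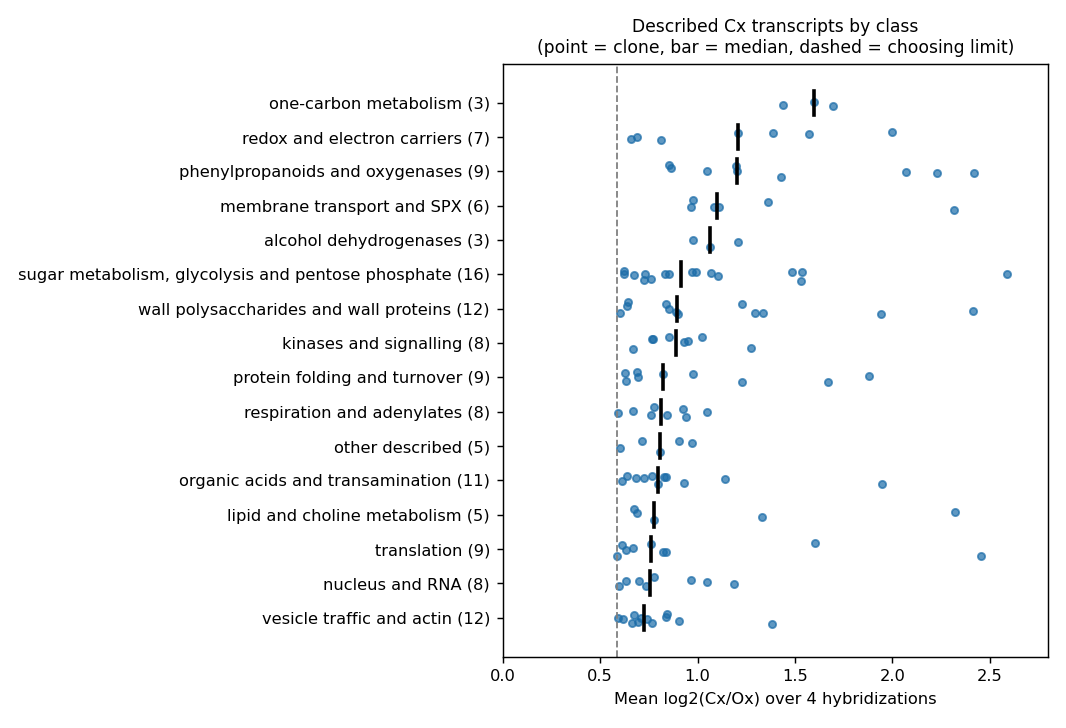
Mean log2(Cx/Ox) of the described Cx transcripts in 16 classes, 1 point for each clone, with the number of clones in parentheses, the class median as a black bar and the limit of 0.585 dashed. Class medians lie between 0.72 for vesicle traffic and actin and 1.60 for one-carbon metabolism, and the largest single mean is that of fructokinase 3, 2.59.

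The phenylpropanoid and oxygenase class held 9 clones with a median of 1.20. Laccase GEM-055-E03 had log2(Cx/Ox) values of 2.39, 2.32, 2.25 and 2.72 on hybridizations 1 to 4, a mean of 2.42 ± 0.21 (SD, n = 4). Laccase GEM-108-A10, which the study matched to the same protein, had values of 2.73, 2.12, 1.97 and 2.09. The 2 clones kept no fixed order, since their difference ran between -0.33 and 0.63. The remaining laccase, GEM-086-G05, had values of 1.67, 1.04, 0.70 and 0.77, so that none of its values reached the lowest of either other laccase. Its read was shown above beside that of GEM-055-E03.

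A phenylcoumaran benzylic ether reductase clone, an enzyme of lignan and neolignan synthesis, had values of 2.41, 2.07, 1.95 and 1.85. An ethylene-forming enzyme, the oxidase that makes ethylene from its immediate precursor, had values of 1.77, 1.14, 1.67 and 1.14. These hybridizations thus split within each dye orientation. Clones GEM-095-C04 and GEM-020-C04 of cinnamyl-alcohol dehydrogenase, the last enzyme of monolignol synthesis, share 253 identical bases and had nearly equal means. The values were 1.83, 1.06, 0.99 and 0.92 (mean 1.20 ± 0.42, SD, n = 4) for GEM-095-C04. They were 1.52, 0.97, 1.21 and 1.08 (mean 1.19 ± 0.24) for GEM-020-C04, so that hybridization 1 was highest in both. A dirigent-like protein, of a family that steers the coupling of phenoxy radicals, had a mean of 0.87 ± 0.25, and a 2-oxoglutarate and iron dependent oxygenase had one of 0.86 ± 0.13.

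The class of wall polysaccharides and wall proteins, formed from the descriptions, held 12 clones with a median of 0.90. Whether its glycosyltransferase and glucuronosyltransferase clones act on wall polymers was not tested. The glycosyltransferase clone GEM-036-G12 was among the steadiest, with values of 2.34, 2.45, 2.52 and 2.34. The other clone of that contig, GEM-032-E10, had values of 0.82, 0.66, 0.91 and 1.03. The groups of values do not overlap, and the difference between the 2 clones was 1.56 ± 0.20 (SD, n = 4) on the log2 scale, larger than the spread of either clone. UDP-glucose dehydrogenase, which makes the UDP-glucuronic acid used for hemicelluloses and pectins, had values of 1.76, 1.53, 1.15 and 0.91. A clone described as a UDP-glucuronosyltransferase had values of 1.34, 1.17, 1.51 and 1.18. Both clones of the GUT1 exostosin family, which in Arabidopsis takes part in glucuronoxylan synthesis, had means of 0.90 and 0.64. GEM-048-H08 had values of 0.97, 0.73, 1.11 and 0.78, and GEM-046-B07 had values of 0.89, 0.70, 0.45 and 0.50. A cellulose synthase catalytic subunit had a mean of 0.84 ± 0.37.

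The proline-rich protein GEM-037-B06 had values of 1.24 and 1.65 with Cx in Cy3 and 2.22 and 2.65 with Cx in Cy5. The proline-rich arabinogalactan protein GEM-003-D11 had the largest SD of this class, with 0.32 and 0.89 with Cx in Cy3 and 1.52 and 2.18 with Cx in Cy5. Both clones, whose proline codons were shown above, thus read higher on the hybridizations with Cx in Cy5. Their dye part was 0.49 and 0.62. It is the shift up from the mean with Cx in Cy5 and down with Cx in Cy3, so the gap between orientations is larger. The study's methods describe hybridizations of different trees, and on that reading dye and tree cannot be told apart in this part. The labels instead place each tree number in both dye orientations. With a mean of 1.23 ± 0.80 (SD, n = 4), the arabinogalactan protein GEM-003-D11 was not called in the robust model (adjusted p = 0.071). An arabinogalactan-like protein and 2 fasciclin-like clones, which belong to adhesive cell surface proteins, had means of 0.89 ± 0.21, 0.64 ± 0.27 and 0.60 ± 0.23. For the fasciclin-like clone GEM-090-B02 the robust estimate of 0.584 fell just short of 1.5-fold.

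**Figure D2:**
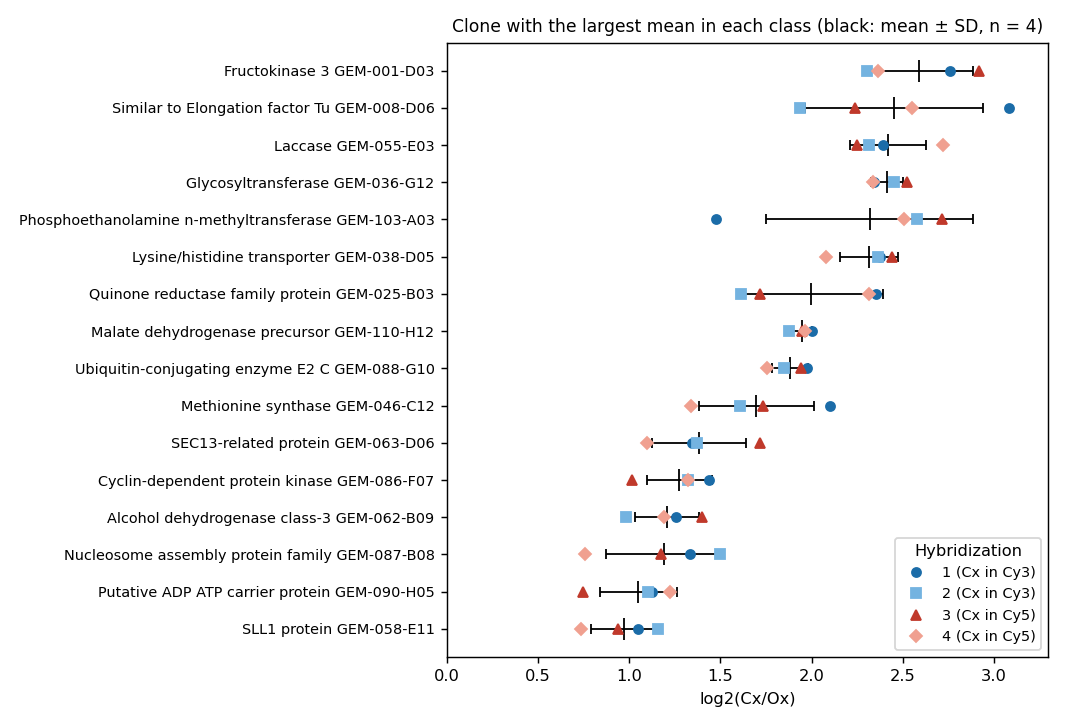
log2(Cx/Ox) of the clone with the largest mean in each of the 16 classes on hybridizations 1 and 2 (Cx in Cy3, blue) and 3 and 4 (Cx in Cy5, red), with the mean and SD of 4 hybridizations in black. The malate dehydrogenase precursor (SD 0.05) and the glycosyltransferase (SD 0.09) varied little, while phosphoethanolamine N-methyltransferase stood at 1.48 on hybridization 1 and at 2.51 or more on the others.

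Sugar metabolism, glycolysis and the pentose phosphate pathway formed the largest class, with 16 clones and a median of 0.91. Fructokinase 3 clone GEM-001-D03 gave the largest mean of all, 2.59 ± 0.30 (SD, n = 4) or 6.01-fold, from values of 2.76, 2.31, 2.92 and 2.37. The other clone of its contig, GEM-009-A08, had values of 1.79, 1.57, 1.77 and 0.99. The first clone lay above the second on all 4 hybridizations, by 1.06 ± 0.27. Clone GEM-031-F05 is described as a hypothetical protein and was therefore left out, but its read equals the opposite strand of GEM-009-A08 over 280 bases without a mismatch. Its values of 1.78, 1.66, 2.07 and 1.14 (mean 1.66 ± 0.39) lay close to those of GEM-009-A08 on each hybridization and below those of GEM-001-D03. No match between the reads of GEM-001-D03 and GEM-009-A08 was found over the bases at hand, so the study's contig alone joins them. What sets these clones apart was not tested.

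**Figure D3:**
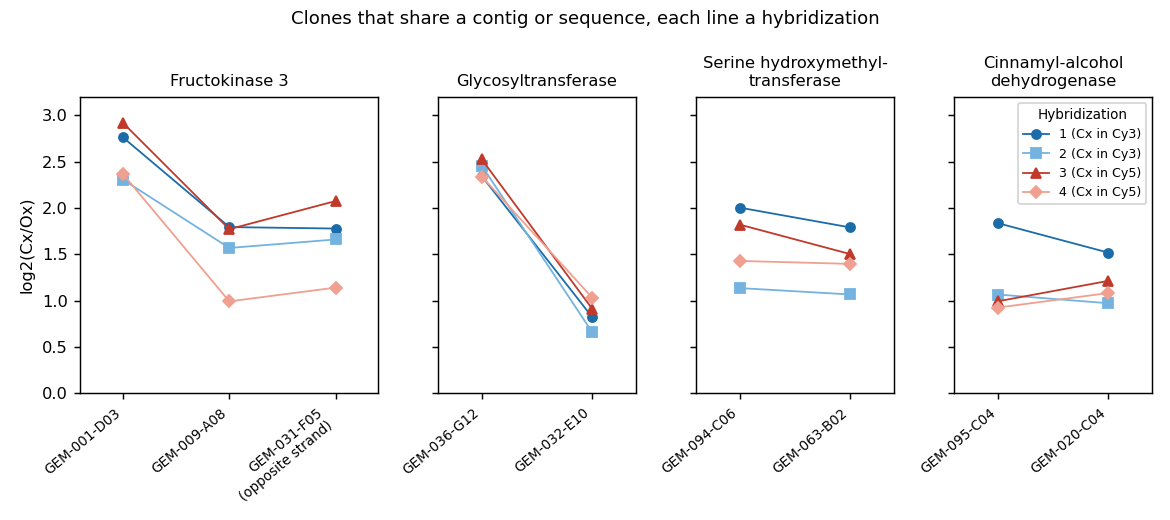
log2(Cx/Ox) of clones that share a contig or sequence, 1 line for each hybridization. The fructokinase clones differ by 1.06 and the glycosyltransferase clones by 1.56 on average in the same direction on all 4 hybridizations, while the serine hydroxymethyltransferase clones differ by 0.16 and the cinnamyl-alcohol dehydrogenase clones by 0.01.

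Sucrose synthase, which cleaves sucrose into UDP-glucose and fructose, had values of 1.73, 1.02, 1.23 and 1.96. 6-Phosphogluconate dehydrogenase, an NADPH-forming enzyme of the pentose phosphate pathway, had the same order of hybridizations, with values of 1.80, 1.12, 1.33 and 1.88. In both, hybridizations 1 and 4 were high and 2 and 3 low, which is neither the dye orientation nor its reverse. Fructose-bisphosphate aldolase and glyceraldehyde-3-phosphate dehydrogenase, glycolytic enzymes, had means of 1.10 ± 0.13 and 0.99 ± 0.19. Triosephosphate isomerase, which interconverts the triose phosphates, had one of 0.86 ± 0.39. An alpha-galactosidase had a mean of 1.07 ± 0.29. The pyrophosphate-dependent and the other phosphofructokinase, ribulose-5-phosphate epimerase and trehalase had means from 0.62 to 0.97.

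Transaldolase, of the pentose phosphate pathway, had a mean of 0.73 ± 0.40 and was not called (adjusted p = 0.056 in the robust model). Phosphoglucomutase, which interconverts glucose 1- and 6-phosphate, was represented by 3 clones. GEM-066-F09 had values of 0.78, 0.72, 1.14 and 0.29. GEM-109-E12 had values of 0.67, 0.69, 1.04 and 0.29. GEM-083-F04 had values of 0.72, 0.60, 0.78 and 0.39. All 3 were thus between 0.60 and 0.78 on hybridizations 1 and 2, highest on 3 and lowest on 4. GEM-066-F09 and GEM-083-F04 were matched to 1 protein, but no match between their reads was found.

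The organic acid and transamination class held 11 clones with a median of 0.80. A malate dehydrogenase precursor, GEM-110-H12, had values of 2.00, 1.88, 1.95 and 1.97, the second smallest SD among all the clones (0.05) at a 3.86-fold ratio. The other 3 malate dehydrogenase clones, described as mitochondrial or without a compartment, had means of 0.83, 0.73 and 0.64. ATP-citrate synthase, a source of cytosolic acetyl-CoA, had values of 1.47, 1.04, 0.86 and 1.19. Of the NADP+-isocitrate dehydrogenase clones, which were matched to 1 protein and supply 2-oxoglutarate and NADPH, GEM-029-B07 had values of 1.06, 0.85, 0.62 and 1.18 and GEM-056-H03 values of 0.83, 0.68, 0.68 and 0.87. Citrate synthase, which opens the citric acid cycle, had values of 0.93, 0.70, 1.00 and 0.73. Both aspartate aminotransferases, with means of 0.80 ± 0.16 and 0.68 ± 0.20, were in the same range. Dihydrolipoamide dehydrogenase, shared by the 2-oxo acid and glycine decarboxylase complexes, was lowest at 0.61 ± 0.11.

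One-carbon metabolism was represented by 3 clones of contigs named in the text, a methionine synthase and a pair of serine hydroxymethyltransferase clones, which together supply methyl groups for S-adenosylmethionine. Methionine synthase had values of 2.10, 1.61, 1.74 and 1.34. Serine hydroxymethyltransferase GEM-094-C06 had values of 2.00, 1.13, 1.82 and 1.43, and GEM-063-B02 had values of 1.79, 1.07, 1.501 and 1.40. The pair kept the same order of hybridizations and differed by 0.16 ± 0.13 (SD, n = 4). Among 3 alcohol dehydrogenases, the class-3 enzyme, which also serves as a glutathione-dependent formaldehyde dehydrogenase, had values of 1.25, 0.98, 1.40 and 1.19. GEM-045-C01 had values of 0.77, 0.81, 1.19 and 1.496, and GEM-023-B09 had values of 1.11, 0.88, 1.27 and 0.64.

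Redox enzymes and electron carriers, 7 clones with a median of 1.21, had the second highest class median. A quinone reductase family protein, of flavoenzymes that reduce quinones to hydroquinones, had values of 2.35, 1.61, 1.71 and 2.32, once more with hybridizations 1 and 4 high. Cytochrome b5 isoform Cb5-B, a membrane carrier that passes electrons to desaturases and to some cytochromes P450, had values of 1.75, 1.46, 1.85 and 1.21. NADH:cytochrome b5 reductase, which reduces it, had a mean of 0.81 ± 0.11. A clone of the thiol-disulfide isomerases and thioredoxins, which exchange disulfide bonds, had values of 1.72, 1.38, 1.60 and 0.86. A clone described only as an antioxidant and electron carrier had values of 1.57, 0.89, 1.36 and 1.02. Peroxiredoxin, a thiol peroxidase, had a mean of 0.69 ± 0.20, and an aldo-keto reductase one of 0.66 ± 0.34.

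Respiration and adenylates, 8 clones, had a median of 0.81 and no mean above 1.05, which was that of an ADP/ATP carrier of the inner mitochondrial membrane (values of 1.12, 1.10, 0.75 and 1.23). The 2 adenylate kinase clones, which interconvert adenine nucleotides, had much the same mean. GEM-007-F11 had values of 1.25, 0.68, 0.78 and 1.06, and GEM-068-D12 had values of 1.08, 0.87, 0.76 and 0.99. A cytochrome c oxidase clone, of the last complex of the respiratory chain, had values of 0.60, 0.84, 1.14 and 0.80. The ATP synthase clone at the limit had values of 0.41, 0.66, 0.76 and 0.55. The other 2 ATP synthase clones had means of 0.78 and 0.67, and the iron-sulfur subunit of the cytochrome c reductase one of 0.76.

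The lipid and choline class was small (5 clones, median 0.77) but held both of the choline-related clones at its top. Phosphoethanolamine N-methyltransferase, which methylates phosphoethanolamine on the way to phosphocholine with S-adenosylmethionine as the donor, had values of 1.48, 2.58, 2.72 and 2.51. Its mean was 2.32 ± 0.57 (SD, n = 4), and the robust estimate, which gives hybridization 1 less weight, was 2.51. Choline kinase, which phosphorylates free choline, had values of 2.01, 0.63, 1.54 and 1.14. On hybridizations 1 and 2 these clones moved in opposite directions, with the methyltransferase low on 1 and the kinase low on 2. A sterol isomerase had values of 0.73, 0.70, 1.00 and 0.67 and a ceramidase, which splits ceramides, values of 1.01, 0.90, 0.52 and 0.32. A dienoyl-CoA reductase had a mean of 0.67 ± 0.19.

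In membrane transport, 6 clones had a median of 1.10. A lysine/histidine transporter, an amino acid permease, had values of 2.38, 2.36, 2.44 and 2.08, a 4.98-fold mean ratio. A protein with an SPX domain, a domain known for sensing phosphate status, had values of 1.36, 1.36, 1.56 and 1.16. A heavy metal ATPase had values of 0.81, 0.85, 1.09 and 1.58, a plastid hexose transporter values of 0.73, 0.64, 1.18 and 1.33. Both were higher with Cx in Cy5 on each hybridization than on any with Cx in Cy3. The same held for a transporter of no stated substrate, with values of 0.56, 1.06, 1.44 and 1.39. A potassium channel beta subunit had a mean of 0.98 ± 0.21.

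Translation held 9 clones with a median of 0.76 and with a wide gap between its members. The elongation factor Tu clone had values of 3.08, 1.94, 2.24 and 2.55, a mean of 2.45 ± 0.49 (5.47-fold). A subunit of the initiation factor eIF3, which prepares the small ribosomal subunit for mRNA, had values of 1.89, 1.59, 1.05 and 1.87. All 7 ribosomal protein clones had means of at most 0.84, the highest being that of 50S protein L25 (1.20, 0.87, 0.67 and 0.62). The 40S protein S19, at the limit, had values of 0.34, 0.75, 0.79 and 0.47. Values of the 60S acidic protein were 0.30, 0.58, 0.91 and 1.504. It (mean 0.82 ± 0.52) and L27a (mean 0.76 ± 0.44) were not called in the robust model (adjusted p = 0.060 and 0.056).

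Among 9 clones for protein folding and turnover (median 0.82), the ubiquitin-conjugating enzyme E2 C, in animals a partner of the anaphase-promoting complex, had values of 1.97, 1.85, 1.94 and 1.75. A brassinosteroid-responsive RING-H2 protein, of a family of ubiquitin ligases, had values of 1.00, 1.45, 2.21 and 2.01. Calreticulin, a calcium-binding chaperone of the endoplasmic reticulum, had values of 1.32, 1.39, 1.40 and 0.81. Subunit 7a of the COP9 complex, which regulates cullin ubiquitin ligases, had values of 1.28, 0.73, 0.94 and 0.95. The remaining 5 clones, ubiquitin among them, had means from 0.63 to 0.82.

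Vesicle traffic and actin, with 12 clones, had the lowest class median (0.72). A SEC13-related protein, of the COPII coat that buds from the endoplasmic reticulum, had values of 1.34, 1.37, 1.72 and 1.10. The coatomer subunit alpha of the COPI coat had values of 0.84, 0.85, 0.82 and 0.87, whose SD of 0.02 was the smallest among all the clones. Coatomer subunit beta-1 varied more, with a mean of 0.77 ± 0.33. An F-actin capping protein, which binds the growing end of filaments, had values of 1.04, 0.76, 0.75 and 1.07, and a GTP-binding protein had values of 0.83, 0.91, 0.77 and 0.84. The Sar1 GTPase that recruits the COPII coat, at the limit, had values of 0.33, 0.65, 0.61 and 0.78. An ADP-ribosylation factor, 2 endosomal P24A proteins, a FAM18B protein, a GTPase activating protein and an ARP complex subunit of the actin cytoskeleton had means from 0.62 to 0.74.

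Kinases and signalling (8 clones, median 0.89) were led by a cyclin-dependent protein kinase with values of 1.44, 1.32, 1.02 and 1.32. The SnRK2-type kinase SAPK10, in rice a kinase of abscisic acid signalling, had values of 1.54, 1.21, 0.66 and 0.69 and was higher with Cx in Cy3. The kinase PBS1, in Arabidopsis a protein guarded by a disease resistance protein, had values of 1.09, 0.92, 0.88 and 0.92. A phytosulfokine peptide precursor, which yields a sulfated growth peptide, had values of 0.95, 0.93, 1.23 and 0.61. A Clavata-like receptor had a mean of 0.77 ± 0.41, and a serine-arginine-rich protein kinase, a cdc2-like kinase and a calcium-binding EF hand protein had means from 0.67 to 0.85.

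The nucleus and RNA class (8 clones, median 0.76) was led by a nucleosome assembly protein, a histone chaperone, with values of 1.33, 1.495, 1.17 and 0.75. A protein of the U3 small nucleolar ribonucleoprotein, which processes ribosomal RNA, had values of 1.17, 0.90, 1.12 and 1.01. A DNA photolyase had values of 1.16, 0.83, 0.83 and 1.04 and a chloroplast nucleoid DNA binding protein values of 1.24, 0.84, 0.42 and 0.60. The other 4 clones of the class lay between 0.60 and 0.74 in their means. Of 5 clones that fell in no class, the SLL1 protein had values of 1.05, 1.16, 0.94 and 0.73. PEX14, of the peroxisomal import machinery, had values of 0.92, 0.88, 0.75 and 1.06. An acid phosphatase had values of 0.65, 0.60, 1.23 and 0.75, with hybridization 3 alone above 1. A protein related to early responses to dehydration had values of 1.01, 0.85, 0.76 and 0.24. A USP family protein had a mean of 0.60 ± 0.13.

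The dye part of the ratio and the differences between hybridizations of one dye orientation do not enter the mean ratio. Both belong to the spread that the adjusted p of the study's list rests on, so the choice of clones was not independent of them. The shares of clones called below, beside those of all spots, are therefore a description. The dye part is how far a ratio moves up with Cx in Cy5 and down with Cx in Cy3, and it is orthogonal to the mean. Where the hybridizations used different trees, as the study's methods word it, dye and tree cannot be told apart in it. By the labels each tree number occurs in both orientations, and counts with the tree number as the replicate are given below. In limma's least squares model with a tissue and a dye term, 0 of the clones and 0% of all spots passed an adjusted p of 0.05, where the smallest adjusted p over all spots was 0.063. At an unadjusted p of 0.05, 29 clones (22.1%) and 37.5% of all spots passed. The robust model gave the same counts for the clones, 0 and 29. The adjusted count turned on what was taken as a replicate. It was 26 clones (891 of all spots) with the 8 columns fitted singly and copies on a slide as a block, 38 clones (1564 spots) with the labelled tree number as the block, and 44 clones (1535 spots) with same-numbered columns averaged. The dye part ran from -0.35 for SAPK10 to 0.62 for the proline-rich arabinogalactan protein, with a median of -0.02. The RING-H2 protein (0.44) and the 60S acidic ribosomal protein (0.38) were next to the proline-rich pair at the upper end.

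Hybridizations 1 and 2 differed at an adjusted p of 0.05 for 83 clones (63.4%), beside 38.7% of all spots, in limma's fit to the 8 columns. The p-value here measures only the spread between the 2 columns taken as copies on a slide. Tree, labelling and slide cannot be told apart in this difference. The ratio was higher on hybridization 1 for 61 clones (46.6%, beside 23.7% of all spots) and on hybridization 2 for 22 clones (16.8%, beside 15.0% of all spots). Hybridizations 3 and 4 differed for 88 clones (67.2%, beside 46.7% of all spots), with 53 higher on hybridization 3 (40.5%, beside 24.9%) and 35 higher on hybridization 4 (26.7%, beside 21.8%). Both differences were called for 55 clones (42.0%, beside 23.0% of all spots) and neither for 15 (11.5%, beside 37.6%). The median size of the difference was 0.25 on the log2 scale among these clones in either pair of hybridizations. Over all spots it was 0.12 for hybridizations 1 and 2 and 0.14 for 3 and 4. These clones were chosen for a large ratio, with a median of 0.86 beside -0.01 over all spots. Whether the differences grow with the ratio was not tested.

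The largest differences belonged to choline kinase, higher on hybridization 1 than on 2 by 1.38 ± 0.06 (SE), elongation factor Tu, higher on 1 by 1.15 ± 0.06, and phosphoethanolamine N-methyltransferase, lower on 1 by 1.10 ± 0.06. The adjusted p values in limma were 2.5e-06, 6.2e-06 and 7.8e-06. Between hybridizations 3 and 4, the largest difference in favour of 3 was that of trehalase, which splits trehalose into glucose, at 0.93 ± 0.06. The largest in favour of 4 was that of eIF3, at -0.83 ± 0.10.

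A few sets of clones with like descriptions are given together below. They were picked after their values were seen, so that their counts are a description with no test of the set. The 6 ribosomal protein clones other than 50S protein L25, set apart by its description, were all lower on hybridization 1 than on 2. All 6 differences were called, beside 15.0% of all spots called in that direction. Their values on hybridization 1 had a median of 0.32, against 0.72 on hybridization 2. L25 went the other way, with 1.20 on hybridization 1 and 0.87 on 2. The 5 subunits of ATP synthase and of respiratory complexes were likewise lower on hybridization 1 than on 2, with 4 differences called, beside the same 15.0% of all spots. The ADP/ATP carrier of that class had nearly equal values on both. Scaling the columns to a common spread kept all 6 ribosomal calls but left 1 of the 4 respiratory calls and turned 1 of the 5 respiratory differences.

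The adenylate kinases were higher on hybridization 1 in both clones, and the redox class was called on hybridizations 1 and 2 in all 7 clones, higher on 1 in 6 of them with peroxiredoxin as the exception. Of all spots, 38.7% were called and 23.7% were called higher on 1. The 3 phosphoglucomutases were all higher on hybridization 3 than on 4, by 0.85, 0.75 and 0.39, and all 3 were called, beside 24.9% of all spots in that direction, while none was called between hybridizations 1 and 2 (2 after the columns were scaled). In the phenylpropanoid and oxygenase class, 7 of 9 clones were higher on hybridization 1 than on 2 and passed, and none passed in the other direction, beside 23.7% and 15.0% of all spots. All the described clones together leaned the same way, 61 against 22. Protein folding and turnover was split, with 3 clones called in each direction.

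**Figure D4:**
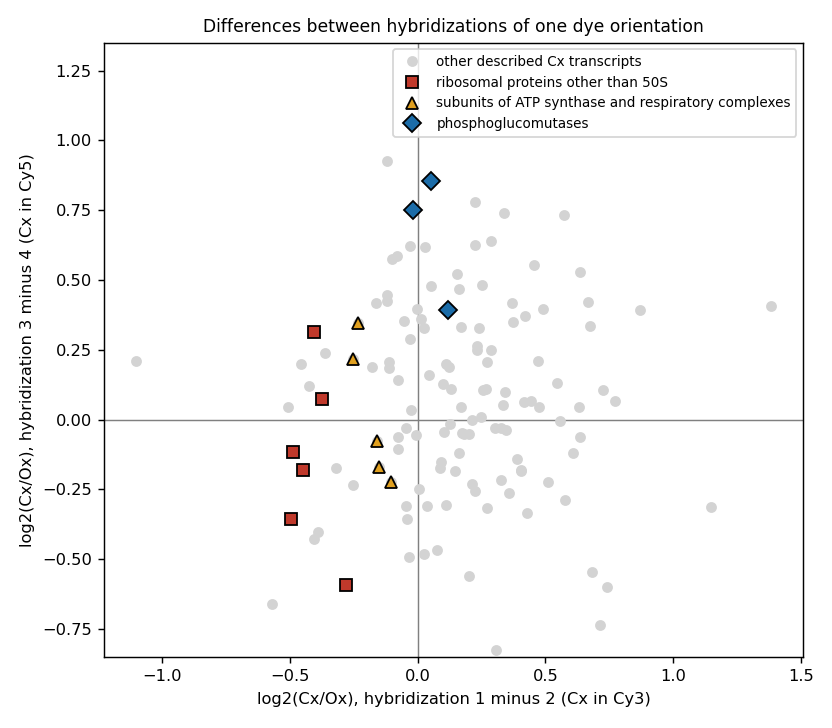
Difference in log2(Cx/Ox) between hybridizations 1 and 2 (horizontal) and between 3 and 4 (vertical) for each clone. The 6 ribosomal proteins (squares) and the 5 subunits of ATP synthase and respiratory complexes (triangles) all lie left of 0, and the 3 phosphoglucomutases (diamonds) all lie above 0 by 0.39 to 0.85.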

How the data were processed

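The authors deposited 8 columns of log2 ratios for 2910 spots. Their methods describe quantifying slides in GenePix, dropping flagged and dim spots and correcting the background (normexp). Normalization was by print-tip loess within each array, without scaling between arrays. The study reports fewer than 2910 spots kept for this array after flagged and dim ones were dropped. The deposited spots thus differ from that filtered set. Shares and adjustments over all spots given here may include spots that the study discarded. The submitters' processing notes name R 2.7.1 and limma 2.14.5. Intensities were not analysed here. The number of arrays limits the precision. All columns were used and 0 were left unused. Columns with Cx in Cy3 were multiplied by -1. Clones were joined to spots through the mean ratio, which equals the listed fold change, used as a key only. Members, classes and lists were chosen with earlier results of these data known. In each of 16 classes, the clones with the largest means (up to 4), those sharing a contig or matched protein, and those at the limit were given with all values, as were a few singled out after their values were seen, and others by mean or range. Columns taken as copies on a slide were averaged. Within a dye orientation these were joined by the highest correlation. Each spot was fitted in limma 3.58.1 (R 4.3.3, statmod 1.5.0) by a robust linear model with at most 200 iterations and an intercept, moderated by empirical Bayes, with Benjamini-Hochberg adjustment over all 2910 spots. A call required 1.5-fold and an adjusted p no higher than 0.05. The dye part and the differences between hybridizations were fitted by least squares. Reads were compared with blastn 2.17.0 (E-value at most 1e-10). The fits were also run on simulated data, with results not reported here. For the differences between hybridizations those data held only noise between copies on a slide. Per the labels each column is 1 tree, against the joining of columns used here, so the p-values measure the spread between these hybridizations, which may be technical. Alternatives were other forms of the fit, blocks, centring, scaling and leaving out each hybridization. Python 3.11.15, numpy, pandas and matplotlib were used.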

Additional observations from a re-analysis of the deposited data

Results flagged for a closer look

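Dixon's outlier test was applied to every one of the described clones, and chance exceeds its limit in about 1 of 20 groups of values. In 4 clones, a smaller share than 1 in 20, 1 of the 4 hybridizations stood apart from the others by more than that limit. The count thus does not exceed that share. The clones were chosen partly on the spread of these values and share the same slides. Whether chance accounts for the count can therefore not be read from it. The phosphoethanolamine N-methyltransferase clone had a log2(Cx/Ox) of 1.48 on hybridization 1, against 2.51 to 2.72 on the others. Cinnamyl-alcohol dehydrogenase clone GEM-095-C04 had 1.83 on hybridization 1, against 0.92 to 1.06. Clone GEM-020-C04, whose read is identical over the shared part, was also highest there, at 1.52. Calreticulin had 0.81 on hybridization 4, against 1.32 to 1.40. Malate dehydrogenase clone GEM-031-B09 had 0.48 on hybridization 2, against 0.78 to 0.82.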

How the results depend on the processing

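The 126 clones called toward Cx (266 of all spots) became all of the described clones by least squares (284 spots), 121 with columns centred (259) and 114 with columns centred and scaled (253), and 99 to 120 when each hybridization was left out in turn (212 to 281). The lowest count was without hybridization 3, and 88 clones were called under the robust model and all 10 alternatives. The median of 0.86 stayed between 0.84 and 0.91, with 0.86 to 0.91 when a hybridization was left out. The dye part depends on what counts as a replicate. No clone was called on the 4 hybridizations, with 0 to 0 when each was left out, whereas 26 clones (891 of all spots) were called with the 8 columns fitted with copies on a slide as a block, and 44 (1535 spots) with same-numbered columns averaged. With the tree number as a replicate block, 38 clones (1564 spots) were called for a dye part and all of the described clones toward Cx. By the labels a number marks a tree, but same-numbered columns' deviations correlated at 0.00, -0.03, -0.02 and -0.01. Of 73 named clones under 10 alternatives, 695 values kept their side of the limits, 29 lost and 6 gained the call, and none changed sign. With columns centred and scaled, hybridizations 1 and 2 differed for 105 clones (1187 of all spots) and 3 and 4 for 80 (1147).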
